A study of Mus musculus with 12 samples.

Results

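Many protein-coding genes hold a second promoter deep inside the gene body, and H3K4me3 at such internal starts was described here in 4 regions of the embryonic mouse forebrain. GENCODE M21 (GRCm38) alone supplied the members, without any measured value. They were the starts of protein-coding transcripts that lay at least 10 kb downstream of the 5′ end of their own protein-coding gene and at least 2 kb from the start of any transcript of another gene, with starts of 1 gene within 1 kb of each other joined. Of 58758 protein-coding transcripts, 8852 started at least 10 kb downstream. Another gene's start lay within 2 kb of 827 of those and they were left out. The remaining 8025 transcripts gave 5706 internal starts in 3664 genes, among 32539 joined starts of all protein-coding transcripts. A single internal start was found in 2462 genes and 2 or more in 1202 genes, up to 11 in 1 gene. The median internal start lay 38.9 kb into its gene (quartiles 19.6 and 90.4 kb), and the farthest, of Fgfr2, lay 2857.2 kb in.

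H3K4me3 was profiled by CUT&Tag, in which an antibody tethers a transposase to chromatin carrying the mark, in wild-type C57BL/6J embryos at stage E12.5. The dissection protocol in the labels also names a later embryonic day without tying it to these samples. The medial, lateral and caudal ganglionic eminences (MGE, LGE and CGE) and the cortex (CTX) gave 12 sequencing runs in all, from 2 replicates a region, with no treatment, transgene or mutation in any group. The authors merged the replicates before they called peaks, so each region is 1 list of peaks from mixed cells, no spread between replicates could be computed and no difference between regions was tested. A start was called marked in a region when a peak of that list lay within 1 kb of it. For joined starts the distance was taken to the span from the first to the last of them. In dissected tissue, a mark in fewer cells and less of it in each cell cannot be told apart.

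H3K4me3 is deposited on the nucleosomes that flank active or poised start sites, mostly by SET1 and MLL complexes, and CpG islands carry it widely. Genes with several promoters use it to produce proteins with different N termini, or the same protein under different control. Long neuronal genes such as those of neurexins, phosphodiesterases and ankyrins are textbook cases, and which of their promoters carries the mark is what a peak list can show, whereas which transcript is made it cannot.

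The sequences that carry the main contrasts are shown first. Each is the 250 bases before a start, read 5′ to 3′ on the strand of the gene from GRCm38, with every CG dinucleotide in capitals, and none overlaps an annotated exon of its gene. Ndel1-201, a start 18.7 kb inside the gene of a dynein regulator, was marked in all 4 lists (chr11:68853136-68853385, minus strand) and has 20 CG, while the 5′ end of Ndel1 (chr11:68871859-68872108, minus strand) was marked in none and has 2.
Ndel1-201: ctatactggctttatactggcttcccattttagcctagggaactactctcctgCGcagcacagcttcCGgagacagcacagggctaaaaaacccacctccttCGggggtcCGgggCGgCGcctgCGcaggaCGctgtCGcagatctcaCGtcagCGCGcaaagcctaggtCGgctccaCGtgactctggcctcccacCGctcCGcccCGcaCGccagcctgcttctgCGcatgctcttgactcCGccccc
Ndel1 gene 5′ end: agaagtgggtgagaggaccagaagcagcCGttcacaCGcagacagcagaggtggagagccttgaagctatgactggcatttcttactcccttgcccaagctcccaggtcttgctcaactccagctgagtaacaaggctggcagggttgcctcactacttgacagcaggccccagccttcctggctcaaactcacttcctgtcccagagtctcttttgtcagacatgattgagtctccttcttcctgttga
Auts2-208 (chr5:131538688-131538937, minus strand, 29 CG) and Dnmt3a-205 (chr12:3891478-3891727, plus strand, 16 CG) are internal promoters marked in all 4 lists in genes whose 5′ end was marked as well.
Auts2-208: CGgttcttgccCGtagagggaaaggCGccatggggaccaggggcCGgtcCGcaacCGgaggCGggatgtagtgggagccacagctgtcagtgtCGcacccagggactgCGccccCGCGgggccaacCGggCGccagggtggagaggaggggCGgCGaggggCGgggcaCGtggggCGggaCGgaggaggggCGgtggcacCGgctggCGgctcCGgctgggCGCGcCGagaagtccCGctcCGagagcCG
Dnmt3a-205: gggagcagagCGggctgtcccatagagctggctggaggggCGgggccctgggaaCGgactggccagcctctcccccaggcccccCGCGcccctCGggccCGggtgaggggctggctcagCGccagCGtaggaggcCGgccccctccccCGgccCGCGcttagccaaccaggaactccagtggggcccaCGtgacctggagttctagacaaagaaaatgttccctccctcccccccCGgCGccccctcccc
Bdnf-203 (chr2:109694159-109694408, plus strand, 13 CG) was marked in all 4 lists, and Bdnf-202 (chr2:109709133-109709382, plus strand, 1 CG), the next internal start of the same gene, in none.
Bdnf-203: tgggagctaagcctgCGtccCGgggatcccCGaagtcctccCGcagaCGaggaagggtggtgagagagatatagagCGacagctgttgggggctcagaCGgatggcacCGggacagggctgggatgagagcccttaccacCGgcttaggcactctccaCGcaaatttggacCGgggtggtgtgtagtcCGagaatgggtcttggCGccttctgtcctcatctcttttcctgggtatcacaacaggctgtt
Bdnf-202: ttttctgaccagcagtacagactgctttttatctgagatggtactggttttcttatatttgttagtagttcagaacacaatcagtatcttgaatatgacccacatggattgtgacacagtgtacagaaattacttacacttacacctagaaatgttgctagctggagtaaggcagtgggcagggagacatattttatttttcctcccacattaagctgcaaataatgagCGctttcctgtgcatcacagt
Mitf-201 (chr6:97991542-97991791, plus strand, 4 CG) is shown as an internal start of a pigment cell regulator without a peak in any list, and Osbp2-206 (chr11:3774733-3774982, minus strand, 28 CG) as one with a peak in the 3 eminence lists and none in CTX.
Mitf-201: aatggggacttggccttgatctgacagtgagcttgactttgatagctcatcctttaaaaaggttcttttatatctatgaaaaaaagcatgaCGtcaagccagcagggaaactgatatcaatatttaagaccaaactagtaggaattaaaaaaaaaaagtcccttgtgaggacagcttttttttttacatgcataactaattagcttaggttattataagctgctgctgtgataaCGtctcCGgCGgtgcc
Osbp2-206: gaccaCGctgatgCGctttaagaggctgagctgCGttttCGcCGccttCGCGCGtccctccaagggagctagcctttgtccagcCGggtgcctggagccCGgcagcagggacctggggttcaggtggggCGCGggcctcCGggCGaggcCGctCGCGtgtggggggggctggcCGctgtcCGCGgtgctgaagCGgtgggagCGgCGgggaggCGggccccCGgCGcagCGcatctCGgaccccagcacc

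The lists differ in length and in the shape of their peaks. They hold 25339 peaks for MGE, 17284 for LGE, 17752 for CGE and 21442 for CTX, with median widths of 563, 1170, 1240 and 701 bp and median −log10 q of 5.19, 40.0, 79.3 and 8.57. By the study's methods the CGE libraries were sequenced several-fold deeper than those of MGE. The second CTX replicate was deeper than either LGE replicate, while the CTX list had the lower medians of width and −log10 q. The part of depth in the differing calls was not tested. Values of q were therefore read only as percentiles within a list, from 0 for its weakest to 100 for its strongest peak. Of the markers used to check the tissues, the 3 MGE genes (Nkx2-1, Lhx6 and Lhx8) had a peak at a start in the 3 eminence lists and none in CTX. The 4 LGE genes, the 3 CGE genes and the 3 genes shared by the eminences had one in every list, and of 5 cortical genes 3, 4, 4 and 4 did in MGE, LGE, CGE and CTX. Neurod6 had none in any list and Neurod2 none in MGE. Of 5 genes of cells outside the neural tube, 0, 1, 1 and 1 had a peak. The marker check thus separated CTX from the eminences by the MGE genes only, and a list cannot be assigned to LGE or CGE from them.

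Internal starts were marked much less often than starts in general. A peak lay within 1 kb of 909 of the 5706 internal starts in MGE (15.9%, Wilson 95% interval 15.0 to 16.9), against 44.6% of all 32539 joined starts. In LGE the count was 882 (15.5%, 14.5 to 16.4, against 45.3%), in CGE 908 (15.9%, 15.0 to 16.9, against 45.7%) and in CTX 830 (14.5%, 13.7 to 15.5, against 44.1%). These intervals cover counting error only and count every start as separate, although 1202 genes hold 2 or more. With each list at its own threshold the 4 counts lay close together, although the MGE list is the longest and the LGE list the shortest. They were less close with every list cut to 17284 peaks by fold, at 761, 882, 896 and 729 in MGE, LGE, CGE and CTX. With peaks of at least 500 bp only, they were 654, 819, 849 and 633. At most of the marked starts a peak overlapped the start, or the span of joined starts, and did not lie beside it. The shares were 80.0, 88.2, 90.3 and 82.7% of those marked in MGE, LGE, CGE and CTX. The marked starts fell in 890, 857, 876 and 813 different peaks, since some neighbouring starts share 1 peak.

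How firmly a start is annotated went with the mark. For 2280 internal starts every transcript is flagged in the annotation as having an incomplete 5′ end, so that the listed position is where the evidence ends and not a known start, and only 46, 22, 26 and 29 were marked in MGE, LGE, CGE and CTX (2.02, 0.965, 1.14 and 1.27%). Of the 3426 starts with at least 1 complete transcript, 863, 860, 882 and 801 were marked, in the same order of lists (25.2, 25.1, 25.7 and 23.4%). Complete starts of all protein-coding transcripts were marked at 48.7 to 50.4%, so the gap between internal starts and all starts was also present among complete models alone. The 5′ ends of the same 3664 genes were marked at 69.1, 69.7, 69.9 and 68.3%, above the 56.8, 57.6, 57.9 and 56.5% of the 5′ ends of all 21951 protein-coding genes.

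**Figure D1:**
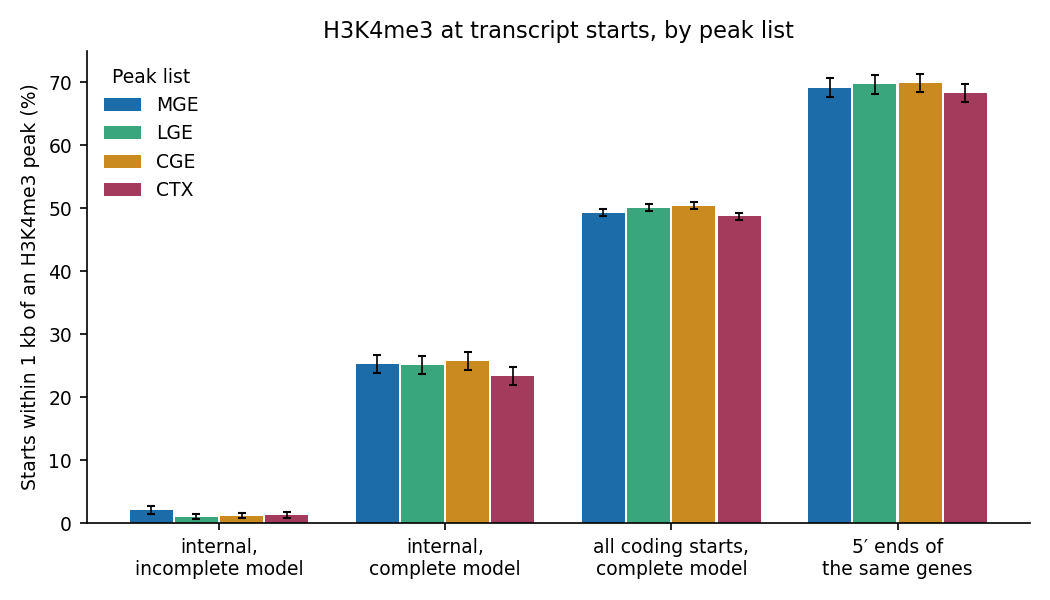
Share of starts within 1 kb of a peak (y axis, %) in the MGE, LGE, CGE and CTX lists for internal starts with incomplete and complete models, all complete protein-coding starts and 5′ ends of the genes with internal starts. Bars are shares and lines Wilson 95% intervals (counting error only), and the complete internal starts sit at 23.4 to 25.7%, between 0.965 to 2.02% for incomplete ones and 68.3 to 69.9% for the 5′ ends.

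Starts with stronger annotation were marked more often. The 1416 starts of a transcript that APPRIS calls a principal isoform were marked at 33.8, 33.7, 34.1 and 32.4% in the lists of MGE, LGE, CGE and CTX, and complete starts without one at 19.1, 19.0, 19.8 and 17.0%. Complete starts with the highest transcript support level were marked at 35.0, 35.1, 35.8 and 32.5%, and the others at 14.2, 14.0, 14.5 and 13.2%. Where 2 or more transcripts share a complete start, 43.7, 43.3, 44.4 and 40.7% were marked, against 17.0, 17.0, 17.4 and 15.7% of starts of a single transcript. In each of these pairs the intervals of both shares did not meet in any list.

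Place in the gene went with the mark too. Complete starts in an intron of the transcripts that begin upstream were marked at 30.2, 30.1, 30.8 and 28.2% in MGE, LGE, CGE and CTX, and those inside an exon at 6.91, 6.91, 7.32 and 5.83%. Complete starts 10 to 20 kb into the gene were marked at 22.1, 22.2, 22.6 and 21.7%, and those 100 kb or more in at 32.8, 33.4, 34.3 and 28.6%. With incomplete models included the shares were 15.4, 15.1, 15.4 and 14.8% and 19.4, 19.1, 19.7 and 16.6%, and the intervals met in MGE and CTX. Internal starts deep in long genes were thus marked at least as often as those near the front. By the first codon, set against that of the most upstream complete transcript, complete starts with the same codon were marked at 18.0, 16.5, 17.5 and 16.3%. Those with a codon downstream of it were marked at 26.8, 27.8, 28.1 and 25.1%, and the 203 with a codon upstream of it at 44.8, 44.8, 45.8 and 41.4%. Both of these classes give a protein with another N terminus. The 166 starts that could not be compared were marked at 47.6, 48.2, 48.8 and 45.8%.

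Peaks at internal starts had lower medians of width and strength in every list than peaks at the 5′ ends of all 3664 genes, most of which had no marked internal start. Median widths at internal starts and at 5′ ends were 809 and 1070 bp for MGE, 1270 and 1430 bp for LGE, 1400 and 1500 bp for CGE, and 838 and 1100 bp for CTX. The authors' fold enrichment over background had medians of 5.17 and 5.98 for MGE, 5.39 and 6.05 for LGE, 5.57 and 6.38 for CGE, and 5.19 and 6.28 for CTX. The median peak at an internal start stood at percentile 56.7, 41.6, 42.7 and 51.5 of −log10 q in the 4 lists, again in the order MGE, LGE, CGE and CTX, and at a 5′ end at 73.0, 64.4, 65.9 and 68.6. Where an internal start and its 5′ end were both marked in a list, the internal peak was the wider at 34.8% of 577 pairs in MGE, at 42.5% of 550 and of 569 pairs in LGE and CGE and at 34.5% of 496 pairs in CTX. The median difference in width, internal minus 5′, was −244, −107, −130 and −268 bp, and over the pairs marked in all 4 lists −148, −65 and −78.5 bp for the eminences and −212 bp for CTX. The internal peak had the higher −log10 q at 37.1, 34.5, 33.4 and 37.3% of the pairs. Single genes went both ways. Among 416 internal starts marked in all 4 lists together with the 5′ end, the internal peak was the wider in every list at 91, the 5′ peak was at least as wide in every list at 149, and the order changed between lists at 176.

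The mark at an internal start and at the 5′ end of its gene gave 4 classes. Both were marked for 577, 550, 569 and 496 internal starts in MGE, LGE, CGE and CTX. The internal start alone was marked for 332, 332, 339 and 334, which is 36.5, 37.6, 37.3 and 40.2% of the marked internal starts. By far the largest class was a marked 5′ end with an unmarked internal start, with 3435, 3500, 3489 and 3469 starts, and neither was marked for 1362, 1324, 1309 and 1407. Over all internal starts, 14.4, 13.6 and 14.0% were marked in MGE, LGE and CGE where the 5′ end was marked, and 19.6 to 20.6% where it was not. For CTX the interval was 11.5 to 13.6% against a share of 19.2%, and these intervals do not meet in any list. Among complete starts the gap was smaller: 25.1% were marked in MGE where the 5′ end was and 25.4% where it was not, and the pairs were 24.4 and 26.3% for LGE, 25.1 and 26.9% for CGE, and 22.5 and 24.7% for CTX. The intervals of each of these pairs overlap. Where the internal start alone was marked, no protein-coding start upstream of it was marked either for 260, 264, 260 and 270 starts.

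**Figure D2:**
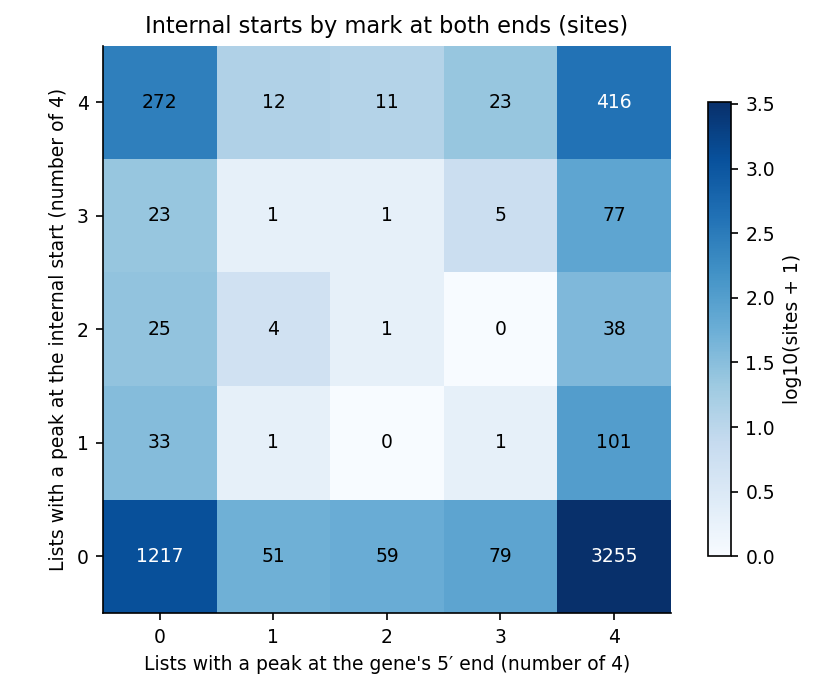
Number of internal starts by how many of the 4 lists hold a peak at the internal start (y axis) and at the 5′ end of its gene (x axis), with colour on a log10 scale of the number of sites. The 4 corners hold 3255 starts with the 5′ end alone marked in every list, 1217 with neither, 416 with both and 272 with the internal start alone.

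No list had a peak at 4661 internal starts. Of the 1045 marked in any list, 734 were marked in all 4 lists and 311 in 1 to 3. The same split was not computed over all joined starts, so it is not shown to be particular to internal starts. Of the 734, the 5′ end was marked in all 4 lists for 416, in 1 to 3 for 46 and in none for 272. The 272 starts with an unmarked 5′ end lie in 241 genes and 268 of them are complete. They carry a principal transcript in 186 cases (68.4%), compared with 218 (52.4%) of the 416 with a marked 5′ end. For 213 of the 272 no upstream protein-coding start was marked in any list, and in 205 the gene has a complete protein-coding start within 1 kb of its 5′ end, so most of the unmarked 5′ ends rest on a complete model. The first codon was the same as in the most upstream complete transcript for 86 of them, downstream for 106, upstream for 34 and not comparable for 46.

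The 12 of these starts with the highest mean percentile of −log10 q over the lists lie in 11 genes, several of them with basic roles in any cell. At Ndel1-201 the peaks of MGE, LGE, CGE and CTX were 912, 1143, 1206 and 915 bp wide, with −log10 q of 83.2, 174, 436 and 90.9, among the strongest of each list. Por-201, a start 19.0 kb inside the gene of cytochrome P450 reductase, had peaks of 1024, 1492, 1635 and 1182 bp. Tmed9-201, whose gene makes a protein of transport vesicles, had peaks of 761, 862, 1045 and 655 bp at 19.4 kb. In these 3 genes the first annotated 5′ end had no peak and a start of a principal isoform had one in every list. At Por another protein-coding start, upstream of Por-201, was marked in MGE, CGE and CTX. Psma6-201 (a proteasome subunit, 14.6 kb in) gave 937, 1380, 1405 and 842 bp, Gnl2-201 (a nucleolar GTPase, 13.4 kb in) gave 689, 873, 1067 and 795 bp, and Wdtc1-201 (14.2 kb in) gave 936, 1100, 1160 and 1322 bp. Usp14-201 (a deubiquitinase of the proteasome, 15.0 kb in), Cyb5a-204 (cytochrome b5, 12.6 kb in), Rab18-205 (a small GTPase, 31.2 kb in) and Inip-201 (a DNA repair protein, 17.7 kb in) also rank among the first 12 by their mean percentile. Tbc1d14, a gene with a role in autophagy, holds 2 of the 12, Tbc1d14-201 at 10.9 kb and Tbc1d14-221 at 62.7 kb, with peaks of 789, 1337, 1355 and 912 bp and of 585, 1478, 1511 and 623 bp.

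Base composition separated marked from unmarked internal starts. In 300 bases around each start (250 before it and 50 from it on), the ratio of observed to expected CG had a median of 0.388 over all joined starts and of 0.272 over internal starts. Where starts were joined, the window was taken at the transcript that names the site, while the mark was called over the whole span. By number of lists with a peak the median was 0.245 for none, 0.265 for 1, 0.364 for 2, 0.368 for 3 and 0.631 for all 4. A ratio of at least 0.6, as in CpG islands, was found at 53.7% of the starts marked in all 4 lists and at 3.48% of those marked in none. Complete starts with a ratio under 0.2 were marked at 6.38, 4.74, 5.97 and 4.99% in MGE, LGE, CGE and CTX, and those with a ratio of 0.8 or more at 92.8, 93.2, 94.1 and 89.5%. The share of marked starts climbed with the ratio in every list. Between 0.4 and 0.6, 38.2 to 42.2% of complete starts were marked, so both calls occur in that range. Over the 250 bases shown above, Dnmt3a-205, marked in all 4 lists, had a ratio of 0.478 and Mitf-201, marked in none, 0.456.

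**Figure D3:**
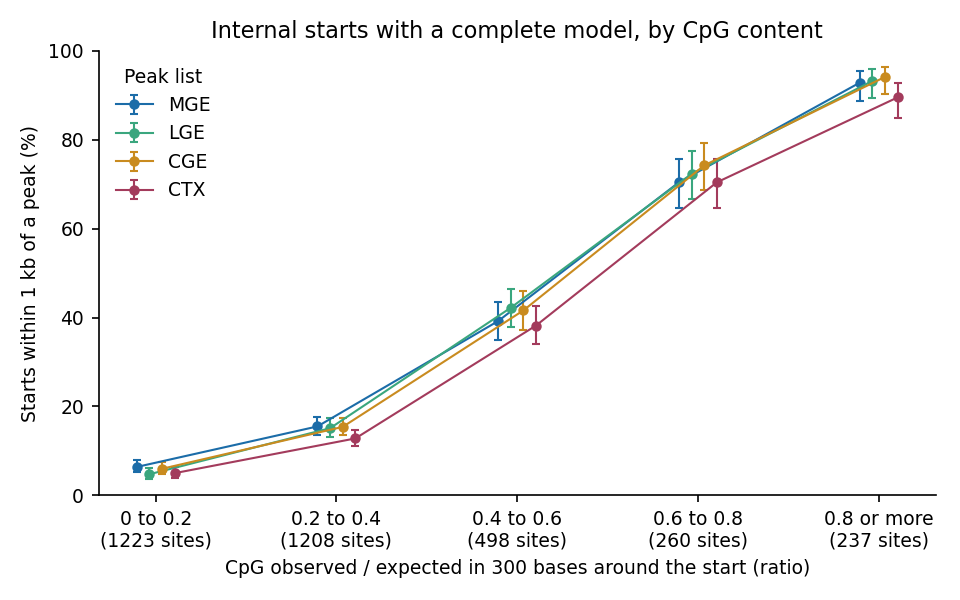
Share of complete internal starts within 1 kb of a peak (y axis, %) by the ratio of observed to expected CG around the start (x axis), for the 4 lists. Points are shares and lines Wilson 95% intervals (counting error only), and in each list the share climbs from 4.74 to 6.38% in the lowest bin to 89.5 to 94.1% in the highest.

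The 5′ ends of the 241 genes with an unmarked 5′ end and an internal start marked in all 4 lists had a median ratio of 0.226, and the 272 internal starts in them 0.686. Over the 5′ ends of all genes with internal starts the median was 0.652. A pair of short motifs was searched on both strands of the same windows. GGGCGG, the core of a GC box, was present at 55.9% of internal starts marked in all 4 lists and 6.95% of those marked in none, against 35.5% of all joined starts. TATAAA was present at 7.08 and 18.3%, against 13.9% of all joined starts. GGGCGG contains a CG, so its share is not separate from the ratio.

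Calls that differed between lists mostly rested on weak peaks. The 136 internal starts with a peak in 1 list had a median percentile of 10.2 and a median width of 219 bp, the 68 with 2 lists 13.3 and 578 bp, the 107 with 3 lists 24.2 and 683 bp, and the 734 with all 4 lists 53.1 and 1180 bp. Of the 136, 62 were in MGE alone, 41 in CTX alone, 23 in CGE alone and 10 in LGE alone, and 37 of the 136 have only incomplete models. The largest group of differing calls was the 65 starts marked in MGE, LGE and CGE and not in CTX, compared with 18 missing only from the LGE list, 16 only from the MGE list and 8 only from the CGE list. A further 40 were marked in LGE and CGE alone. A peak missing from a list can also be a peak just under its threshold, and with 1 list a region a difference between regions and one between lists cannot be told apart.

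**Figure D4:**
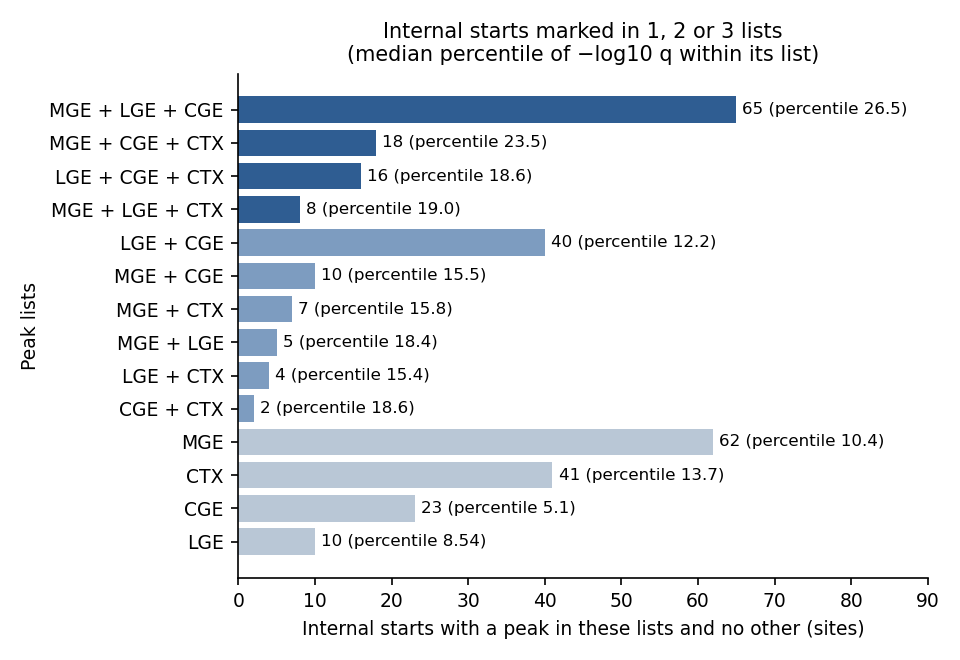
Number of internal starts (x axis) for each combination of 1, 2 or 3 lists with a peak (y axis), with the number and the median percentile of −log10 q within a list beside each bar. The longest bars are the 65 starts in the 3 eminence lists and the 62 in MGE alone, whose median percentiles are 26.5 and 10.4.

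The 65 starts marked in the eminences and not in CTX lie for the most part in genes whose 5′ end was marked everywhere: the 5′ end had a peak in all 4 lists for 47 of them and in none for 15. Their median width was 893 bp, their median ratio of observed to expected CG 0.362, and 63 have complete models. A CTX peak lay within 2 kb of 4 of them, within 5 kb of 7 and within 10 kb of 12, so most had no CTX peak near. The start with the highest mean percentile, Cdk2ap1-203 (a regulator of CDK2, 12.8 kb in; 523, 2808 and 3066 bp in MGE, LGE and CGE), is one of the 4, with a CTX peak 1.88 kb away. Satb1-214 (a chromatin organizer of cortical interneurons, 22.4 kb in; 2211, 2122 and 2204 bp) is another, with a CTX peak 1.44 kb away that lies at the next start of the gene, Satb1-207. There the CTX peak was 1502 bp wide, so both starts share 1 wide peak in each eminence list and CTX has a peak at Satb1-207 only. An internal start of Satb1 was therefore marked in all 4 lists.

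Farther from any CTX peak lay Cacnb4-202, a start 118.3 kb inside the gene of a calcium channel beta subunit, with peaks of 1109, 1592 and 1895 bp in MGE, LGE and CGE and the nearest CTX peak 117 kb away. Osbp2-206 (an oxysterol binding protein, 89.2 kb in) had peaks of 1235, 1346 and 1406 bp, and Clasp2-203 (a microtubule plus end protein, 71.1 kb in) of 553, 1551 and 1745 bp, with CTX peaks 11.4 and 19.1 kb away. Shank2-202, an internal start of a postsynaptic scaffold gene with an unmarked 5′ end, had peaks of 269, 822 and 891 bp and the nearest CTX peak 54.6 kb away. The next 6 by mean percentile were Tmcc1-203 (397, 575 and 602 bp), Anks1-208 (2136, 2346 and 2630 bp), Phc2-203 (980, 1188 and 1322 bp), Eps15-201 (243, 1350 and 1484 bp), Esrrg-201 (670, 2716 and 2821 bp) and Dpp6-204 (980, 1093 and 1228 bp). Phc2 makes a Polycomb protein, Eps15 an endocytic adaptor, Esrrg an orphan nuclear receptor and Dpp6 a potassium channel auxiliary subunit. The 5′ end was marked in all 4 lists for the first 5 of these 6 and in 2 lists for Dpp6.

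Of the 40 starts in LGE and CGE alone, Impact-201 (a translation regulator of an imprinted gene, 16.1 kb in) had the highest mean percentile, where the LGE peak was 1741 bp wide and the CGE peak 1776 bp (−log10 q of 68.3 and 207). An MGE peak lay 1.09 kb and a CTX peak 1.07 kb from it, just past the distance that counts, so this call rests on where peaks end. The same holds for Cbx7-206, the next in order, with peaks of MGE and CTX both 1.02 kb away. Within 2 kb, 5 of the 40 had an MGE peak and 3 a CTX peak. Farther from both, Runx1t1-202 (a transcriptional corepressor, 41.3 kb in) had peaks of 1221 and 1357 bp and Nos1-206 (neuronal nitric oxide synthase, 60.8 kb in) of 781 and 820 bp. The absent peaks here are those of MGE and CTX, the lists whose peaks are narrower in general, and the part of that in these calls was not tested. In CTX alone the strongest calls were Lmo3-208 (a LIM-only regulator, 154.8 kb in, 686 bp), Dlg4-216 (a start in the gene of PSD-95, 10.8 kb in, 270 bp), Pls1-202 (an actin bundler, 29.9 kb in, 483 bp) and Gmnc-204 (a regulator of multiciliated cells, 23.4 kb in, 205 bp). An MGE peak lay 1.42 kb from Dlg4-216, and a protein-coding start of Dlg4 upstream of it was marked in every list. In MGE alone the strongest calls were Usp49-203 (267 bp), Zfp106-211 (504 bp) and Arhgap23-201 (417 bp), and in LGE alone Pde4b-205 (481 bp), Rwdd3-206 (1806 bp) and Lsp1-209 (906 bp). In CGE alone Prkar1b-210, a start 22.2 kb inside the gene of a protein kinase A regulatory subunit, stood above the others with 1585 bp. Grb10-203 (1426 bp), in an imprinted gene, and Mid1-201 (862 bp) followed. The peak at Grb10-203 is the same CGE peak that covers Grb10-207, where MGE and LGE also had one (253 and 1391 bp), so this call rests on the position of 1 peak edge.

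Of 40 genes taken as textbook cases of alternative promoters, 36 hold internal starts, 117 in all. Of these, 39, 42, 42 and 38 were marked in MGE, LGE, CGE and CTX (33.3, 35.9, 35.9 and 32.5%), above the 14.5 to 15.9% of all internal starts. In 28 of the genes at least 1 internal start was marked, and 33 starts were marked in all 4 lists, 16 in 1 to 3 and 68 in none. The 49 marked starts had a median percentile of 37.1, compared with 43.6 over the 1045 marked internal starts of all genes.

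Nrxn2 and Nrxn3, genes of neurexins, presynaptic adhesion proteins whose short beta forms start inside the gene, carried the mark at an internal start in all 4 lists. At Nrxn3-202 (1089.6 kb in) the peaks were 1025, 1110, 2020 and 757 bp wide in MGE, LGE, CGE and CTX, and at Nrxn2-203 (79.1 kb in) 2595, 3137, 3230 and 1846 bp, wider in each list than the peak at the 5′ end of Nrxn2 (1713, 2263, 2451 and 1131 bp). The other internal starts of Nrxn3 were unmarked in every list. Among genes of postsynaptic scaffolds, Dlg2-204 had 603, 922, 925 and 728 bp and Shank3-207 had 1063, 1297, 1520 and 540 bp. Shank2-205 had 889, 1853, 1959 and 1386 bp with no peak at the 5′ end of Shank2 in any list.

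In the phosphodiesterase gene Pde4d, whose many promoters give long and short cAMP-degrading enzymes, the 5′ end and 6 of 11 internal starts were unmarked in every list. Of the other 5, Pde4d-208 (1052, 1721, 1672 and 1188 bp), Pde4d-218 (1123, 1113, 1124 and 754 bp), Pde4d-205 (1276, 1569, 3306 and 873 bp) and Pde4d-201 (798, 937, 1225 and 476 bp) were marked in all 4 lists. Pde4d-203 was marked in the eminences alone, at 264, 2355 and 3558 bp. The 4 starts lie 666.7 to 1236.2 kb into the gene, and Pde4d-218 among them has only an incomplete model. Separate annotated starts of 1 gene thus carried the mark in the same dissected tissue. In Pde4b, Pde4b-207 (1037, 1022, 983 and 595 bp), Pde4b-203 (467, 1929, 808 and 894 bp) and Pde4b-202 (342, 511, 2607 and 139 bp) were marked together with the 5′ end in all 4 lists.

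Regulators of transcription and chromatin differed in which internal start was marked. Auts2-208, 1004.7 kb inside the gene of a neurodevelopmental regulator, had peaks of 1665, 2858, 2918 and 1672 bp, and the other 4 internal starts of Auts2 had none. Dnmt3a-205, 85.7 kb inside the gene of a de novo DNA methyltransferase that makes a short form from an internal promoter, had 1610, 2032, 2160 and 1695 bp, and the starts on either side, Dnmt3a-213 and Dnmt3a-209, had none. Tcf4-203 (1226, 2331, 2323 and 1318 bp) was the one start of 8 in the gene of this bHLH factor with a peak in all 4 lists. At Nr3c1-201, one of 2 internal starts of the glucocorticoid receptor gene with a principal isoform, peaks were 755, 2866, 2902 and 2752 bp, and the other, Nr3c1-204, had none in any list. At Ppargc1a-203, of a mitochondrial coactivator, they were 938, 2139, 2154 and 943 bp. Neither gene had a peak at its 5′ end. Runx1-202, in a gene of blood formation with a distal and a proximal promoter, had 679, 1384, 1469 and 1478 bp and its 5′ end none.

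In the neurotrophin gene Bdnf, Bdnf-203 was marked (860, 1677, 1322 and 1648 bp; −log10 q of 2.96, 16.3, 28.1 and 5.53), a site that joins the starts of 5 transcripts. The sequence shown above lies before the transcript that names the site, and a peak can lie elsewhere along the joined span. The 5′ end and Bdnf-202 had no peak. Another protein-coding start of Bdnf, upstream of Bdnf-203, was marked in every list, so Bdnf-203 was not the only marked start. In Nrg1, a gene of an ErbB ligand with many N termini, Nrg1-201 lay 965.7 kb in and had 1222, 2111, 2753 and 1166 bp. At the imprinted Gnas locus of a stimulatory G protein, Gnas-202 (340, 998, 1037 and 812 bp) and Gnas-208 (1706, 1947, 2148 and 1587 bp) were marked in all 4 lists and Gnas-201 in none, while the 5′ end had peaks in the eminences (506, 658 and 2207 bp) and none in CTX. Dmd-201, 2099.5 kb inside the dystrophin gene, had 650, 754, 762 and 738 bp and the 5′ end none. Among genes of cytoskeletal linkers, Dst-205, Dst-201, Ank3-231, Ank3-233, Plec-203 and Agrn-201, of a synapse organizer, were marked in all 4 lists with widths from 502 to 2982 bp.

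Some textbook genes known for roles outside the brain had no peak at any internal start in any list. They include Mitf with 3 starts, Pparg with 2 (a regulator of fat cells), Hnf4a with 2 (of liver and gut), and Cyp19a1 (aromatase) and Trp63 (of epithelia) with a single start each. Runx1, also of that kind, was marked at Runx1-202 in all 4 lists, as given above. Trp73-201, of a relative of Trp63, had peaks in MGE and LGE alone, both weak (percentiles 8.26 and 4.96). The 5′ ends of Mitf and Pparg were marked in all 4 lists and those of Hnf4a, Cyp19a1 and Trp63 in none. Cdkn2a-201, the start of the p16 form of this tumour suppressor gene, was unmarked in every list while the 5′ end had peaks of 1396, 1440, 1405 and 1516 bp. Esr1-203, of the estrogen receptor, had a peak of 147 bp in CTX alone. The 3 internal starts of Cux1 have only incomplete models and no peak.

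**Figure D5:**
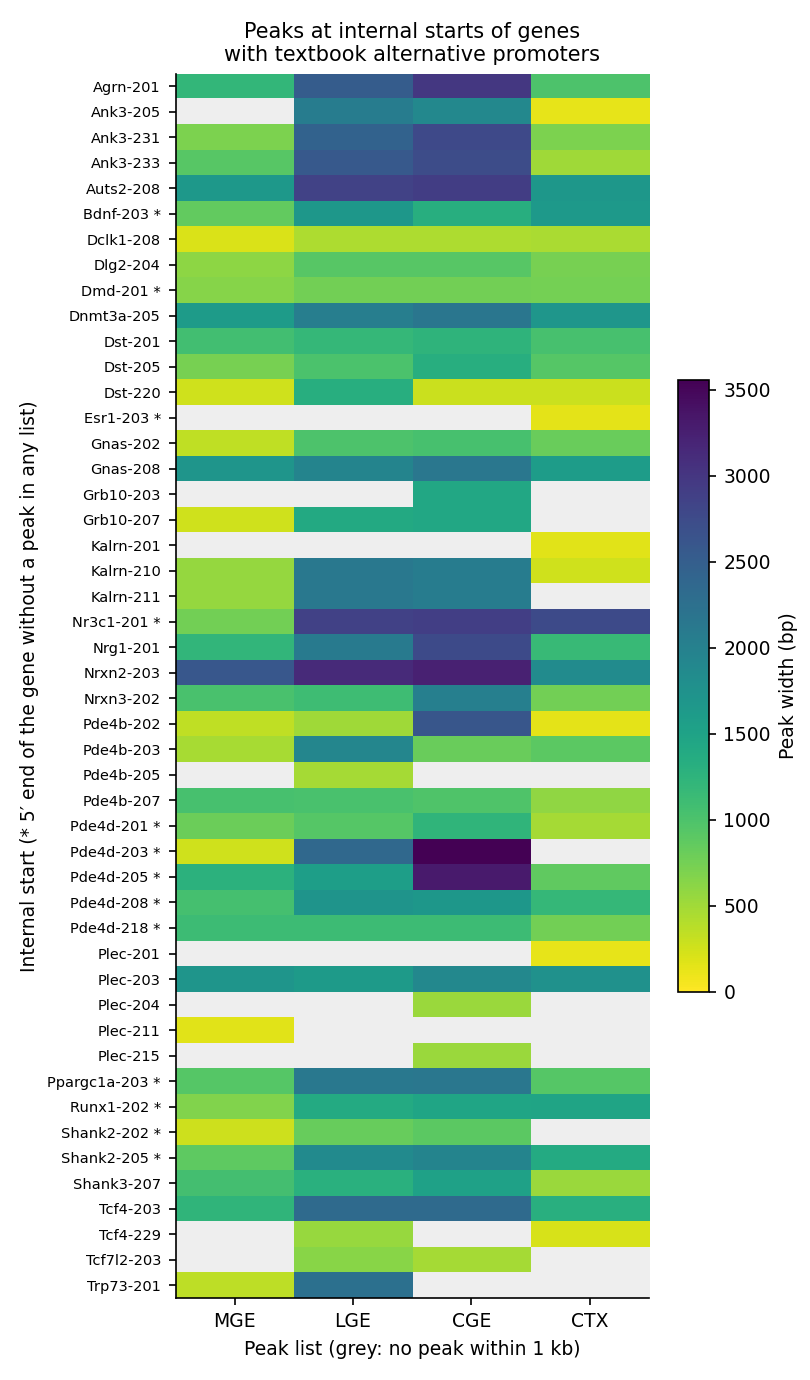
Width of the peak (colour, bp) at internal starts of the textbook genes (y axis) in each list (x axis) for 48 starts marked in at least 1 list, with grey where no peak lay within 1 kb and a star where the 5′ end of the gene had no peak in any list. The 32 starts marked in all 4 lists show full rows, and at 24 of them both the LGE and the CGE peak were wider than those of MGE and CTX, the order of the median widths of the whole lists.

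Other groups of genes were described in the same way, each by the internal starts of its members. Among forebrain transcription factors, 29 genes hold 70 internal starts, of which 20, 21, 20 and 17 were marked in MGE, LGE, CGE and CTX, and 14 in all 4 lists. Sox5-201 (1569, 2826, 2828 and 2847 bp), Nfib-201 (2907, 2926, 2419 and 1713 bp), Foxp1-230 (1574, 1820, 1815 and 1836 bp) and Rora-202 (1269, 1806, 1855 and 1968 bp), all of neuronal differentiation regulators, lie 200.4 to 635.9 kb inside genes whose 5′ end was marked in all 4 lists. At Lhx2, a selector gene of the cortex, Lhx2-201 and Lhx2-205 share 1 peak in LGE, CGE and CTX (5689, 6385 and 1575 bp) and had separate peaks of 569 and 564 bp in MGE. Zfhx3-202 (1403, 1834, 3903 and 1527 bp) and Zfhx3-201 (425, 2059, 2932 and 940 bp) were marked in all 4 lists and the 5′ end of Zfhx3 in MGE alone. At St18-207 the eminence lists had peaks of 252, 1395 and 1667 bp and CTX none, and Tcf12-207 had peaks of 1732 bp in MGE and 2298 bp in CGE and none in LGE or CTX.

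Among genes of synapse and adhesion proteins, 38 hold 81 internal starts, of which 26, 25, 25 and 24 were marked, and 23 of them in all 4 lists. Cntnap2-201 (1102, 2376, 1632 and 1449 bp) lay 2185.1 kb inside its gene, Lsamp-202 (1312, 1608, 2291 and 1343 bp) 1548.7 kb and Opcml-201 (1356, 1611, 1730 and 1475 bp) 613.0 kb, each of a neuronal cell surface protein. Dlg4-201 (833, 833, 1471 and 605 bp) was marked with an unmarked 5′ end. Ptprs-202, of a receptor phosphatase, had 1141, 1808, 1905 and 1154 bp and the highest mean percentile of the group, 79.7.

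Cytoskeletal genes numbered 41 with 150 internal starts, and 38, 36, 38 and 34 of these were marked, 28 in all 4 lists. Macf1-208, 272.1 kb inside the gene of a microtubule-actin linker, had 1187, 1528, 1522 and 1173 bp and no peak at the 5′ end. Sept9-203 (1584, 1981, 2080 and 1534 bp), Epb41l3-201 (1126, 1463, 1520 and 1188 bp) and Ank2-208 (1119, 1278, 1455 and 1129 bp) were also marked in every list. Map2-204 of a dendritic microtubule protein had 493, 645, 2998 and 217 bp, so the same start carried a wide peak in CGE alone. Genes of signalling enzymes and GTPase regulators numbered 51 with 141 internal starts, and 42, 45, 43 and 39 were marked, 34 in all 4 lists. Sgk1-201 (792, 1658, 1065 and 912 bp), Stk3-201 (756, 988, 980 and 797 bp), Arhgef7-202 (966, 1356, 1463 and 970 bp) and Prkag2-203 (1044, 1580, 1674 and 1047 bp) had mean percentiles of 77.9 to 80.4. Of 11 starts in this group with the 5′ end unmarked in every list, Rgs20-201 had 2331, 2480, 2368 and 2144 bp. Fgfr2-215, the start farthest from its 5′ end, had 2634, 2490, 2642 and 1691 bp.

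Genes of chromatin regulators numbered 34 with 85 internal starts, and 22, 20, 21 and 19 were marked, 18 in all 4 lists. Tet1-207, of a DNA demethylation enzyme, had 1405, 1449, 1425 and 1456 bp, Hdac4-202 had 759, 2186, 2217 and 823 bp and both lacked a peak at the 5′ end. Kdm2b-201 (1570, 1996, 2069 and 1631 bp) and Kdm2b-214 (1766, 2083, 2266 and 2030 bp) were marked together with the 5′ end. Genes listed as regulators of non-neural lineages, a label that does not exclude a role in neurons, numbered 16 with 40 internal starts. Of these starts 6, 5, 6 and 5 were marked, 4 in all 4 lists. These shares, 15.0% in MGE and CGE and lower in LGE and CTX, did not exceed those of all internal starts. These 4 are Mef2c-227 (1170, 1122, 2460 and 1017 bp), Lmo2-202 (423, 1889, 2053 and 2204 bp), Ets1-201 (781, 886, 1000 and 582 bp) and Runx1-202, and none of their 5′ ends was marked in any list. The 6 other groups had shares of 22.4 to 35.9% in any list, above those of all internal starts, and their genes were chosen with earlier results of these data known.

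Several genes held more than 1 internal start marked in all 4 lists, 70 in all. Abr, Gramd1b and Pde4d held 4 such starts each, and Ank2, C77080, Dab2ip, Dst, Frmd4a, Pde4b, Pde4dip and Stox2 held 3 each. Some of these share a peak, as 2 starts of Abr and 2 of Dab2ip do, so the number of starts is not the number of separate peaks.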

How the data were processed

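H3K4me3 CUT&Tag reads of 4 dissected regions were aligned by the authors with Bowtie2 to GRCm38/mm10, cleared of blacklisted regions and of PCR duplicates (Picard), merged over replicates with samtools and called as broad peaks with MACS. Tool versions, the MACS threshold and a control are not given in the sources used here. Each deposited list holds, per peak, a score (10 times −log10 q as a whole number), the authors' fold enrichment, a ratio of merged reads over the caller's background, and the authors' −log10 q of pooled reads (a −log10 p beside it was not used). Significance grows with depth, so −log10 q was compared within a list only. Read numbers per peak are not known here.

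Labels were mapped to regions, and each list was taken as the pool of its region. Starts came from GENCODE M21 and were matched in Python 3.11.15 with numpy 2.4.6 and pandas 2.3.3, and figures were drawn with matplotlib 3.10.9. A start takes the values of the peak with the highest −log10 q within 1 kb, and is named by its most firmly annotated transcript. Sequences were read from the GRCm38 assembly. The functions that match starts to peaks were tested on simulated data. Wilson 95% intervals cover counting error only, genes are not replicates, and no test was run.

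The members and gene lists were chosen with earlier results of these data known. Named were the internal starts of the textbook genes (some items that the counts include are not reported here), the first 12 by mean percentile among starts marked in all 4 lists with the 5′ end unmarked, and the first 3 of each list alone. Starts named for the other gene groups, and those of the eminence, LGE and CGE, and CTX groups beyond the first 6, were chosen after their values were seen. Alternatives were a −log10 q of at least 2, lists cut to equal length by fold, other distances and complete starts only. Peak widths of at least 500 bp, a 5 kb window and unmarked upstream starts were added after seeing the data.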

Additional observations from a re-analysis of the deposited data

How the results depend on the processing

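All 70 alternative values of the counts stayed within 1.5 times the reported ones. Shares were not compared in this way. With complete starts only, 23.4 to 25.7% of 3426 internal starts were marked in the 4 lists, against 14.5 to 15.9% of all 5706. Starts marked in all 4 lists, 734 as reported, numbered 691 with a −log10 q of at least 2 and 650 with every list cut to its 17284 peaks of highest fold. They numbered 612 with a peak over the start or joined span itself, 779 within 2 kb, 721 with complete starts only and 537 at 20 kb or more from the 5′ end. Starts marked in the eminences and not in CTX, 65 as reported, ranged from 58 to 83. At equal list length MGE fell to 761 marked starts and CTX to 729, against 882 in LGE and 896 in CGE, so the order of the lists changed. No paired analysis was possible because each deposited list pools both replicates of its region, and for the same reason no replicate could be left out. The lists hold no read numbers per peak, libraries differed in depth, and a start without a peak may carry the mark below the threshold of its list.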

Other observations

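Most H3K4me3 peaks deep inside genes did not lie at an internal start of a protein-coding transcript. Starts of noncoding transcripts of the same gene were not among the internal starts, so a peak counted as elsewhere can lie at one. Counting peaks at least 10 kb into a protein-coding gene and at least 2 kb from the start of any other gene, 5290, 2106, 2260 and 3688 were found in MGE, LGE, CGE and CTX. Of these, 920 (17.4%), 844 (40.1%), 864 (38.2%) and 838 (22.7%) lay within 1 kb of an internal start. With each list at its own threshold, the number at internal starts was close between the lists. The number elsewhere was not, at 4370, 1262, 1396 and 2850. Peaks elsewhere had median widths of 209, 592, 620 and 252 bp, compared with 774, 1270, 1400 and 806 bp at internal starts, and median percentiles of 22.9, 13.4, 13.8 and 21.4, compared with 55.8, 41.5, 42.7 and 50.4.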
